A study of Homo sapiens with 6 samples.

Results

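The genes described here are 10 markers by which ovarian carcinoma is recognised or followed: PAX8, WT1, EMX2, SOX17 and ESR1 among transcription factors, MUC16, MSLN, FOLR1 and WFDC2 among surface and secreted proteins, and the chromatin subunit ARID1A. They were taken by name, through every probe set annotated to 1 of these symbols, which gave 11 probe sets of 33252 and 10 genes of 18418 analysed. The cells were A2780, a human ovarian cancer line, infected with lentivirus carrying short hairpin RNAs and harvested 96 hours later, with the virus medium replaced at 24 hours. For BMI1, a Polycomb protein that helps to silence genes, there were a control (Ctrl) and the hairpins shRNA1 and shRNA2, with 1 microarray each. For FAL-1, a long non-coding RNA, there were likewise its own control and a pair of hairpins, named in the same way, with 1 microarray each. All arrays share the same line, the infection and growth in 10% serum, no uninfected sample was analysed here, and separate cultures are not described. Limma's p-values therefore measure only the spread between the hairpin arrays of a target. That spread mixes any technical spread with differences between the hairpins, and it is not one between replicate cultures. The fit takes the spread of a control from that of the hairpin pairs, since each control is 1 array.

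Most ovarian carcinomas carry features of the epithelium that lines the Müllerian duct, the embryonic source of fallopian tube and uterus. PAX8, SOX17 and EMX2 are factors of that lineage, and WT1 marks serous carcinoma. MUC16, MSLN, FOLR1 and WFDC2 are abundant on or secreted by many such tumours and serve as blood markers or drug targets. ARID1A, a subunit of the SWI/SNF chromatin remodelling complex, is a tumour suppressor often lost in endometrioid and clear cell ovarian carcinoma. Polycomb complexes silence many genes of developmental transcription factors.

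Sequence just before the transcription start is shown for the genes matched to 1 start only: ARID1A, the brightest of the 10 genes, PAX8, EMX2 and WFDC2. CpGs are marked because CpG-rich starts are a common feature of broadly expressed genes and of Polycomb targets alike. The 80 bases come from RefSeq on GRCh38.p14, run 5′ to 3′ on the strand of the gene, and have each CpG in capitals. ARID1A lies at chr1:26695935-26696014 (plus strand), PAX8 at chr2:113278922-113279001 (minus), EMX2 at chr10:117542666-117542745 (plus) and WFDC2 at chr20:45469673-45469752 (plus).
ARID1A: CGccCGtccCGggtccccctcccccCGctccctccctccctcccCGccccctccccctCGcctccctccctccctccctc
PAX8: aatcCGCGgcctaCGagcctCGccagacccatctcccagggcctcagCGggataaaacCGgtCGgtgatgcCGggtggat
EMX2: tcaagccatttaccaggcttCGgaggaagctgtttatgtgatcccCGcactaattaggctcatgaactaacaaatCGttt
WFDC2: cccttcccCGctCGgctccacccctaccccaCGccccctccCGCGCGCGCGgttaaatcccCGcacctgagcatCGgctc

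The full promoter window, from 250 bases before to 50 after a start, was matched for 7 of the 10 genes, with 16 windows in all because WT1, ESR1 and MUC16 have several starts. The ARID1A window held 33 CpGs, more than 82.8% of the 35116 windows of the RefSeq table, whose median was 14. WFDC2 held 22, EMX2 21 and PAX8 13. The 4 WT1 windows held 4 to 21 CpGs, the 6 ESR1 windows 4 to 17, and the 2 MUC16 windows 7 and 8. No window of these genes held the full palindromic oestrogen response element, which occurs in 0.0570% of all windows, or TATAAA, which occurs in 11.5% on either strand. TGACC, 1 arm of that element, was found on either strand in 1 window each of ESR1, MUC16, WT1 and WFDC2, and occurs in 37.4% of all windows. These are matches of letters in this window only.

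Array values are log2 summaries of a probe set, so a difference of 1 is a doubling. Probe sets bind with different strength, so a gene's value was set against the distribution of its own array and not used to order genes by amount of RNA. On each array 2 marks were used: the median of all probe sets, 6.94 to 7.09, and a background level, the 95th percentile of 361 olfactory receptor genes, 6.26 to 6.44. Olfactory receptors serve smell in nasal neurons and were taken as genes not expected in this line. ARID1A and SOX17 lay above the median on every array, 7 genes lay at or below it on every array, and WT1 was above it on 1 array. MUC16 was at background on every array, and MSLN and ESR1 were there on 5 of 6 each. Of all genes analysed, 54.1% were above the median on every array and 24.0% at background on every array. Most of these ovarian markers thus lay at or below the median on the arrays of this ovarian line. Even so, 7 of the 10 were above background on every array, beside 67.5% of all genes.

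**Figure D1:**
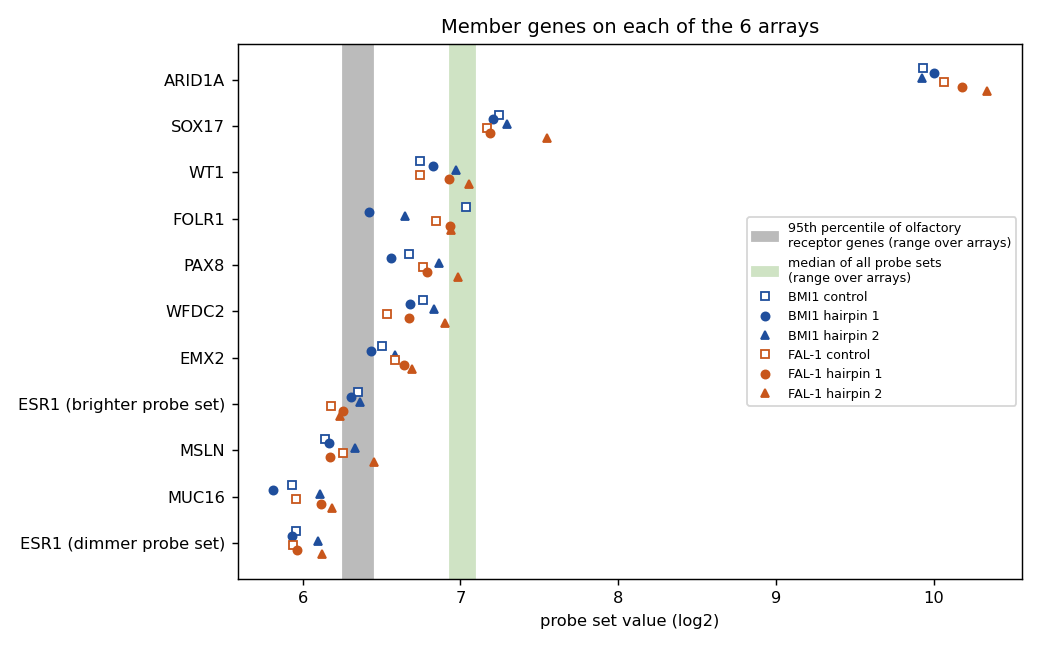
Log2 probe set values (x axis) of the 10 genes (y axis, ESR1 with both probe sets) on the 6 arrays, with open squares for controls, circles for hairpin 1 and triangles for hairpin 2. ARID1A lies between 9.93 and 10.34, SOX17 just above the green band of array medians, and MUC16 left of the grey band of background levels.

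Among the lineage factors, SOX17, an HMG-box factor that partners PAX8 in ovarian carcinoma, read 7.24 in the BMI1 control, 7.20 and 7.30 with the BMI1 hairpins, 7.17 in the FAL-1 control, and 7.19 and 7.55 with the FAL-1 hairpins. It exceeded each array's median by only 0.16 to 0.53, and 99.4% of olfactory receptor genes lay below its mean. The array with FAL-1 hairpin 2 stood above the other 5, which lay between 7.17 and 7.30.

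WT1, a zinc finger factor, read 6.74 in the BMI1 control, 6.83 and 6.97 with its hairpins, 6.75 in the FAL-1 control, and 6.93 and 7.05 with its hairpins. The controls nearly coincided, and every hairpin array lay above both of them. PAX8, a paired box factor of kidney, thyroid and Müllerian epithelium, read 6.67, 6.56 and 6.87 in the BMI1 control and hairpins 1 and 2, and 6.76, 6.79 and 6.98 in the FAL-1 set in the same order. For PAX8 the BMI1 hairpins lay on either side of their control.

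EMX2, a homeobox factor of the urogenital tract, read 6.50, 6.43 and 6.59 in the BMI1 set and 6.59, 6.64 and 6.69 in the FAL-1 set. Its 6 values spanned 0.26, less than the median range of 0.41 over all genes. ESR1, oestrogen receptor alpha, read 6.35, 6.31 and 6.36 in the BMI1 set and 6.18, 6.26 and 6.23 in the FAL-1 set by its brighter probe set. The dimmer ESR1 probe set read 5.96, 5.94 and 6.09, then 5.94, 5.97 and 6.12, and was at background on all 6 arrays.

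Among surface and secreted proteins, FOLR1, the folate receptor alpha that brings folate into the cell, had the widest span of the 10 genes, 0.62. It read 7.04 in the BMI1 control, 6.42 with BMI1 hairpin 1, 6.65 with BMI1 hairpin 2, 6.85 in the FAL-1 control, 6.93 with FAL-1 hairpin 1 and 6.94 with FAL-1 hairpin 2. The BMI1 hairpin arrays lay below the other 4, an arrangement that 9.49% of all genes shared.

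WFDC2, a secreted protein with whey acidic protein domains, read 6.76, 6.68 and 6.83 in the BMI1 set and 6.53, 6.68 and 6.90 in the FAL-1 set. Its lowest and highest values were thus both in the FAL-1 set, the control and hairpin 2. MSLN, mesothelin, a membrane-anchored protein that binds MUC16, read 6.14, 6.17 and 6.33, then 6.26, 6.17 and 6.45. MUC16, the mucin that carries a blood antigen used to follow ovarian cancer, read 5.94, 5.81 and 6.11, then 5.96, 6.12 and 6.18. The MUC16 values stayed under the background level of their own array throughout.

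ARID1A stood apart in level. It read 9.93 in the BMI1 control, 10.00 and 9.93 with the BMI1 hairpins, 10.06 in the FAL-1 control, and 10.18 and 10.34 with the FAL-1 hairpins. Its mean of 10.07 exceeded 87.4% of probe sets. The probe set summarises the whole gene, so the values do not show whether the transcripts encode intact protein.

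The first comparison asked what lowering BMI1 does to these genes. The probe set that reads BMI1 also carries the readthrough transcript COMMD3-BMI1. It was at 10.64 in the control, 8.73 with hairpin 1 and 9.99 with hairpin 2, so the hairpins differed in strength. The mean BMI1 difference of -1.27 had a 95% interval of -2.75 to 0.20. BMI1, the target itself, thus did not pass limma's test over all genes (adjusted p = 0.9998). Of the 10 genes, FOLR1 had the largest difference: -0.62 with hairpin 1, or 65.2% of the control, and -0.39 with hairpin 2, or 76.3%. The mean was -0.50 ± 0.16 (SD, n = 2 hairpins), with a 95% interval of -0.92 to -0.09. In limma this gave an unadjusted p = 0.028 and an adjusted p = 0.9998 over all genes. Limma's unadjusted p for FOLR1 was 0.0504 with dim genes left out and 0.108 against the control of the other target. It was 0.013 to 0.019 with other normalizations or pooled controls. FOLR1 was also below the control of the other target, by smaller differences of -0.43 and -0.20. With hairpin 1 the FOLR1 value was close to the background level of that array, 6.41, while with hairpin 2 it lay above that array's level of 6.44.

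None of the 10 genes was 1.5-fold or more from the BMI1 control with both hairpins, beside 1.44% of all genes, and at a log2 difference of 0.32 or more only FOLR1 was lower with both, beside 4.23%. No gene in the table passed limma's test (0%), and 2.59% had an unadjusted p under 0.05, FOLR1 among them. WT1 (0.16 ± 0.10) and MSLN (0.11 ± 0.12) were above the control with both hairpins, beside 32.9% of all genes, and FOLR1 alone was below with both, beside 30.7%. The other 7 genes had mean differences between -0.01 and 0.04 with the hairpins on either side of the control. For SOX17 the mean of 0.01 had a 95% interval of -0.53 to 0.54, and for ESR1 -0.01 had one of -0.35 to 0.33. Differences of up to about 1.45-fold therefore could not be told from 0 for SOX17.

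**Figure D2:**
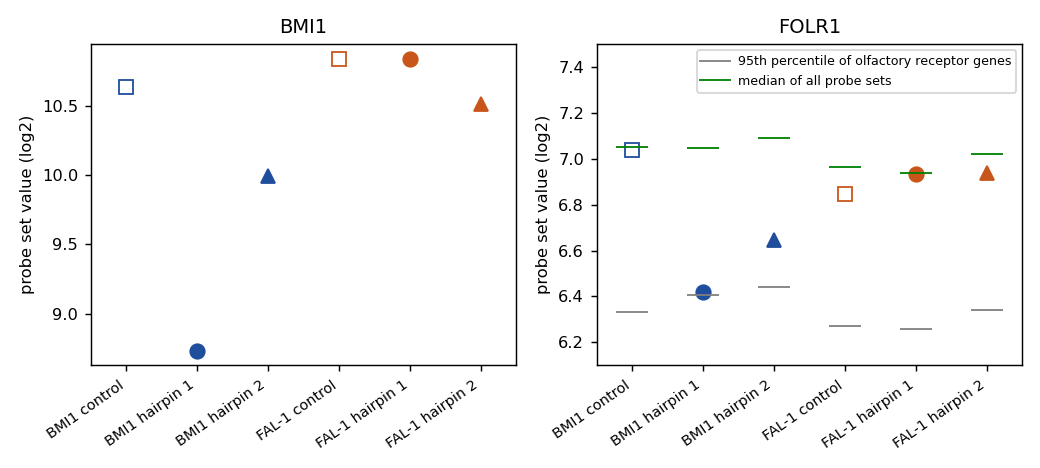
Log2 probe set values (y axes, different scales) of BMI1 and of FOLR1 on each array, with grey marks at the background level and green marks at the median of all probe sets in the FOLR1 panel. FOLR1 reads 6.42 and 6.65 with the BMI1 hairpins and 6.85 to 7.04 on the other 4 arrays.

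The other genes of folate uptake and binding on the lists, singled out after their values were seen, were set beside FOLR1. SLC19A1, the reduced folate carrier, read 9.16 in the BMI1 control and 8.89 and 8.94 with the hairpins. SLC46A1, the proton-coupled folate transporter, read 8.68, then 8.32 and 8.60. FOLR2, folate receptor beta, read 6.36, then 6.38 and 6.37. The carriers differed from the control by -0.25 ± 0.04 and -0.22 ± 0.20 and FOLR2 by 0.01 ± 0.01 (SD, n = 2 hairpins), with an adjusted p = 0.9998 in limma for each. FOLR3, folate receptor gamma, lay on the other side of the control from FOLR1, at 0.24 and 0.32, and had the same adjusted p. Its values of 5.97, 6.21 and 6.29 were at background on each array of the BMI1 set. Neither BMI1 hairpin lay above the FAL-1 control, 6.29, so the FOLR3 difference rests on the BMI1 control array.

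The second comparison asked the same of FAL-1. FAL-1 itself was not checked here, because its symbol is not among those of the probe sets used. No member was 1.5-fold from the FAL-1 control with both hairpins, beside 1.21% of all genes. No gene passed limma's test (0%), and none of the 10 was among the 3.06% of genes with an unadjusted p under 0.05. Even so, 9 of the 10 lay above the FAL-1 control with both hairpins, where 37.2% of all genes and 46.8% of olfactory receptor genes did. MSLN was the exception, at -0.08 and 0.20. None lay below the control with both, beside 27.7% of all genes.

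These differences were small. WFDC2 read 0.14 and 0.37, a mean of 0.26 ± 0.16 (SD, n = 2 hairpins). WT1 read 0.18 and 0.31, a mean of 0.25 ± 0.09, and SOX17 0.02 and 0.38, a mean of 0.20 ± 0.26. ARID1A read 0.12 and 0.27, MUC16 0.16 and 0.23, and PAX8 0.03 and 0.22. The values for EMX2 (0.08 ± 0.04), FOLR1 (0.09 ± 0.01) and ESR1 (0.07 ± 0.02) were smaller still. Every 95% interval included 0, from -0.15 to 0.64 for WT1 and from -0.19 to 0.71 for WFDC2, and limma gave an adjusted p = 0.999 for all 10. All 10 values were read against the same control array, so they are not independent of each other. Against the BMI1 control, 6 of the 10 were above with both FAL-1 hairpins, beside 41.8% of all genes. FOLR1 then read -0.11 and -0.10 and ESR1 -0.09 and -0.11.

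**Figure D3:**
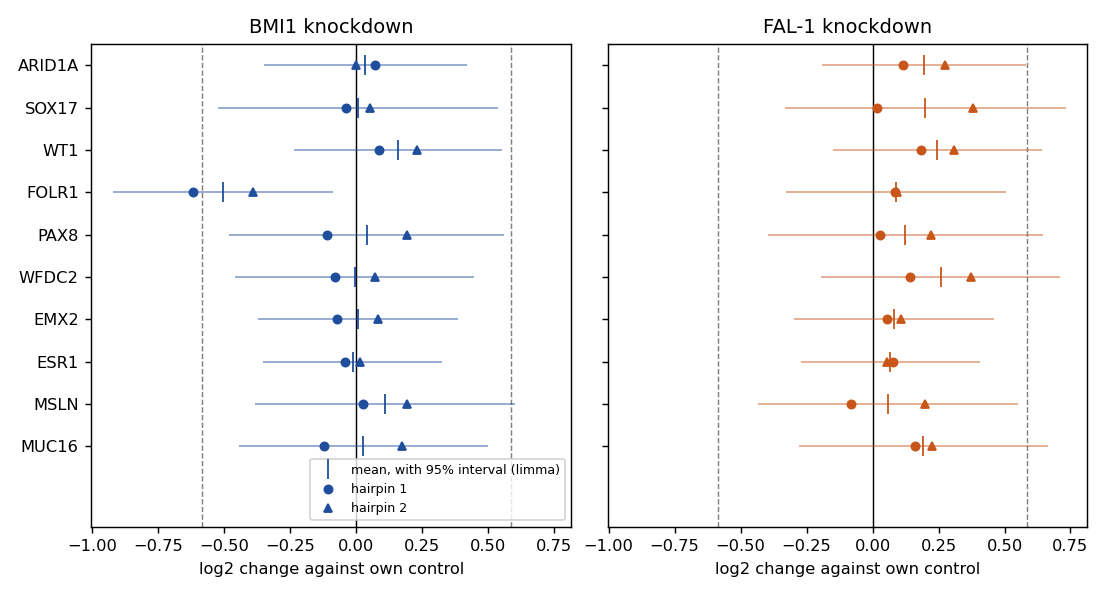
Log2 difference of each hairpin from its own control (x axes) for the 10 genes (y axis), with the mean as a vertical tick, its 95% interval from limma as a line, and dashed lines at 1.5-fold. Only FOLR1 with BMI1 knockdown has an interval that leaves out 0, -0.92 to -0.09, and it did not pass after adjustment over all genes.

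The hairpins of a target were not alike. For 8 of the 10 genes the array with FAL-1 hairpin 2 gave the highest of the 6 values, beside 30.7% of all genes and 24.1% of olfactory receptor genes. After quantile normalization or cyclic loess this held for 6 of the 10, with 25.2% and 23.1% of all genes. Hairpin 2 also lay above hairpin 1 for both targets in 8 of 10 genes, beside 37.6% of all genes. The median difference of the 10 genes from their control was -0.06 and 0.08 with BMI1 hairpins 1 and 2 and 0.08 and 0.22 with FAL-1 hairpins 1 and 2. Over all genes these medians were -0.01, 0.02, 0.01 and 0.05. The keratins KRT8 and KRT19 read 11.07 and 8.57 on the array with FAL-1 hairpin 2, above 9.04 to 10.06 and 6.21 to 6.73 elsewhere. Over all 6 arrays the other epithelial markers had no such margin. KRT18 and EPCAM were highest with BMI1 hairpin 2, at 9.58 and 6.53, beside 9.47 and 6.34 with FAL-1 hairpin 2. Within the FAL-1 set KRT18 was highest with hairpin 2, beside 8.79 in the control and 8.45 with hairpin 1. KRT7 was highest with FAL-1 hairpin 2, at 6.67, beside 6.65 with BMI1 hairpin 2. CDH1 was also highest there, at 6.09 beside 5.80 to 5.95 elsewhere, but was at background on every array. The part of KRT8 and KRT19 in the higher values was not tested.

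WT1 was the only gene of the 10 above its own control with all 4 hairpins, beside 17% of all genes. FOLR1 was the only one below the control with both BMI1 hairpins and above it with both FAL-1 hairpins, beside 6.43%. The difference between those FOLR1 responses was 0.59, with a 95% interval of 0.0018 to 1.18. Over all genes limma gave an unadjusted p = 0.0496 and an adjusted p = 0.9999, in a comparison where 0% of genes passed and 0.804% had an unadjusted p under 0.05.

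The BMI1 and FAL-1 sets also differed as wholes, and target and any batch cannot be told apart in this design. All 3 ARID1A values of the FAL-1 set, 10.06 to 10.34, lay above the 3 of the BMI1 set, 9.93 to 10.00, as for 12.4% of all genes. The brighter ESR1 probe set lay lower on all 3 FAL-1 arrays, as for 6.35%, but the dimmer one overlapped between sets. The differences were 0.21 for ARID1A and -0.13 for ESR1, with adjusted p = 0.718 and 0.844 in limma. In that comparison 0% of genes passed, and 7.98% had an unadjusted p under 0.05, none of the 10 among them. The matrix genes LUM (9.53 to 10.29 and 10.57 to 11.33) and DCN (8.90 to 9.27 and 9.78 to 10.30) also differed between the BMI1 and FAL-1 sets. Both lay higher on all 3 FAL-1 arrays, as for 12.4% of all genes. The other fibroblast markers, COL1A1, COL3A1 and PDGFRB, overlapped between the sets. The part of LUM and DCN in the ARID1A and ESR1 values was not tested.

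Wider lists put the 10 genes beside their relatives, and in each list 0 genes passed limma's adjusted threshold for either target. With both BMI1 hairpins 32.9% of all genes were above the control and 30.7% below, and 2.59% had an unadjusted p under 0.05. For FAL-1 these shares were 37.2%, 27.7% and 3.06%. The median difference over all genes was 0.01 with BMI1 and 0.03 with FAL-1 knockdown, and 54.1% of all genes were above the median on every array and 24.0% at background. Differences between lists were not tested. Of 16 other Müllerian and gonadal lineage factors measured, 4 were above the median on every array (LHX1, GATA6, FOXL2 and MEIS1) and 2 were at background (MECOM and TCF21). PAX2, the paralog of PAX8 in the Müllerian duct, read 6.90 to 7.19 over the 6 arrays. None of these factors was 1.5-fold from its control with both hairpins of a target. With both BMI1 hairpins 7 were above and 1 below, and with both FAL-1 hairpins 6 and 1. The median difference was 0.05 with BMI1 and 0.07 with FAL-1 knockdown, and 0 had an unadjusted p under 0.05 for either.

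Of 32 ovarian cancer antigens and secreted markers, 5 were above the median on every array (CLDN3, KLK10, PRAME, CRABP2 and IGFBP2) and 5 were at background. SPP1, which encodes the secreted protein osteopontin, read 5.85 in the BMI1 control, 6.63 and 7.54 with its hairpins, 6.56 in the FAL-1 control and 7.34 and 8.81 with its hairpins. All 4 hairpin arrays were above both controls. A looser condition, above the own control with all 4 hairpins, held for 17% of all genes. The SPP1 value of the BMI1 control was under the background level of that array, 6.33. With BMI1 hairpin 1 SPP1 was only 0.07 above the FAL-1 control. The differences of 1.24 ± 0.65 and 1.52 ± 1.04 were not past the threshold (limma, adjusted p = 0.9998 and 0.999), so a mean difference of 2.86-fold with FAL-1 knockdown could go uncalled in this design.

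CRABP2, a retinoic acid carrier, read 10.36 in the BMI1 control and 8.98 and 9.46 with the hairpins. The FAL-1 hairpins disagreed for CRABP2, at 9.07 and 10.56 beside a control of 10.17. SLC34A2, a phosphate transporter and antibody target, read 7.05 in the FAL-1 control and 7.75 and 8.24 with its hairpins, and 6.68, 6.41 and 7.18 in the BMI1 set. MUC1, an epithelial mucin, read 6.96 to 7.53 over the 6 arrays. EPCAM, an epithelial adhesion protein, read 6.01, 6.44 and 6.53 in the BMI1 set and 6.36, 6.23 and 6.34 in the FAL-1 set, at background on 2 arrays. The list's median difference was 0.08 with BMI1 and 0.05 with FAL-1 knockdown. For BMI1, 16 genes were above and 7 below with both hairpins, and 1 had an unadjusted p under 0.05. For FAL-1 the counts were 15, 5 and 0.

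Of 18 steroid and gonadotropin receptors and oestrogen receptor targets, 5 were above the median on every array (CCND1, XBP1, CA12, IGFBP4 and FOXA1), and 6 were at background, among them the progesterone receptor PGR and the oestrogen receptor beta gene ESR2. GREB1, an oestrogen receptor target, read 6.92, 6.44 and 6.47 in the BMI1 set and 6.76, 6.69 and 6.23 in the FAL-1 set. CA12, a carbonic anhydrase, read 9.33 in the FAL-1 control and 8.59 and 8.52 with the hairpins, a difference of -0.77 ± 0.05 that did not pass (adjusted p = 0.999, limma). With BMI1 the CA12 hairpins differed, at -1.03 and -0.27. The list's median difference was -0.05 with BMI1 and 0.05 with FAL-1 knockdown, and 0 and 1 genes had an unadjusted p under 0.05. With both hairpins 4 were above and 7 below for BMI1, and 7 and 4 for FAL-1.

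**Figure D4:**
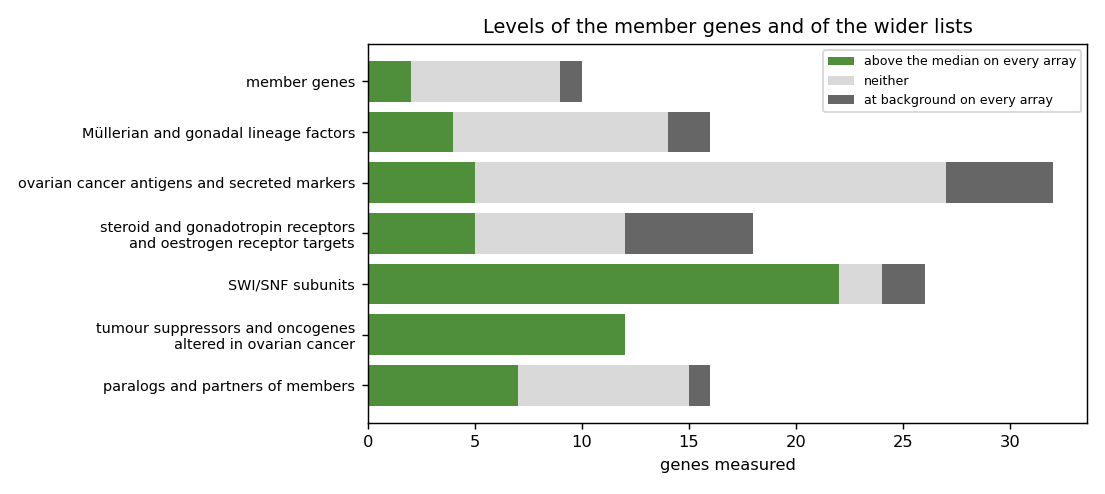
Number of genes measured (x axis) in each list (y axis), split into those above the median of all probe sets on every array, those at background on every array, and the rest. SWI/SNF subunits are above the median for 22 of 26, beside 2 of the 10 ovarian markers.

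Of 26 SWI/SNF subunits, the partners of ARID1A, 22 were above the median on every array, beside 54.1% of all genes, and 2, SMARCA2 and DPF3, were at background. ARID1B, the paralog that can replace ARID1A in the complex, read 9.28, 9.05 and 9.12 in the BMI1 set and 8.80, 8.75 and 8.83 in the FAL-1 set. All 3 FAL-1 values of ARID1B lay below the 3 of the BMI1 set, as for 6.35% of all genes, and target and batch cannot be told apart there either. SMARCA4, the ATPase, read 10.39 to 10.58 over the 6 arrays. No subunit was 1.5-fold from its control with both hairpins of a target. DPF1, singled out after its values were seen, was past 1.5-fold with 1 hairpin of each target. It read -0.86 and -0.46 with the BMI1 hairpins (unadjusted p = 0.043, adjusted p = 0.9998, limma) and -0.42 and -0.67 with the FAL-1 hairpins. With both BMI1 hairpins 4 were above and 13 below, with a median difference of -0.13 and 2 genes with an unadjusted p under 0.05. With both FAL-1 hairpins 7 were above and 9 below, with a median of -0.02 and 1 such gene.

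All 12 measured tumour suppressors and oncogenes of ovarian cancer were above the median on every array. FBXW7, a ubiquitin ligase subunit, read 8.17 in the BMI1 control and 8.94 and 8.74 with the BMI1 hairpins. It read 8.29 in the FAL-1 control and 9.02 and 9.61 with the FAL-1 hairpins. All 4 hairpin arrays lay above both controls for FBXW7. A looser condition, above the own control with all 4 hairpins, held for 17% of all genes. With both BMI1 hairpins 1 was above and 7 below, with a median of -0.08 and 0 with an unadjusted p under 0.05. With both FAL-1 hairpins 3 were above and 4 below, with a median of -0.02 and 2 with such a p, FBXW7 among them (difference 1.02 ± 0.42, unadjusted p = 0.020, adjusted p = 0.999, limma). Of 16 paralogs and partners of the 10 genes, BMI1 left out, 7 were above the median and 1, PAX3, at background, and none was 1.5-fold from its control with both hairpins of a target. Their medians were 0.03 with BMI1 and 0.07 with FAL-1 knockdown, with 8 above and 4 below for BMI1 and 2 above and 4 below for FAL-1, and 0 with an unadjusted p under 0.05 for either.

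The cell type label was set against markers of epithelium and of other cells. KRT8 and KRT18 were above the median on every array, CDH1 (E-cadherin) was at background on every array, EPCAM and KRT7 were below the median on every array, and KRT19 was above it on 1 array. Of the 4 mesenchymal markers, VIM, CDH2 and ZEB1 were above the median on every array and FN1 (fibronectin) was at background on every array. No measured leukocyte, endothelial or erythroid marker was above the median on every array. Of the 5 fibroblast markers 4 were, with COL3A1 at 10.51 to 11.01 and DCN at 8.90 to 10.30. In RNA from a bulk culture, fewer cells that express a gene and less RNA per cell cannot be told apart.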

How the data were processed

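Total RNA from 6 samples of infected A2780 cells was hybridised to 1-colour Affymetrix arrays. The authors deposited 1 table of log2 values, made with RMA per the submitters' processing notes. That the scale is log2 was taken from the range of the values and from RMA. Whether all arrays were normalized together is not stated, and quantiles differ from array to array, which bears on every value set across the BMI1 and FAL-1 arrays. The genome build of the array was not given in the sources used here. Of 33252 probe sets, 19460 had 1 gene symbol in the platform annotation, 1754 had several and 12038 none or no entry. Only the 1-symbol probe sets entered, plus that of BMI1. The brightest probe set on average stood for each of 18418 genes.

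All 6 arrays entered 1 fit of 4 group means in limma 3.58.1 (R 4.3.3), two-sided, with Benjamini-Hochberg adjustment over all genes at 0.05. With 2 residual degrees of freedom, precision is limited by how few arrays there are. The fit was tested on simulated data, where it recovered most large changes but not moderate ones, so a gene that did not pass is not shown to be unchanged. An exact permutation of 1 against 2 arrays cannot pass, so none was run. Alternatives were other or pooled controls, other normalizations, probe set means, a filter on dim genes, other priors, a replicate block, left-out hairpins and other thresholds.

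The 10 genes and the lists were chosen with earlier results of these data known. Named genes were the 10, a few marked list genes, and list genes at 1.5-fold with both hairpins. The folate uptake genes and the genes named for their level, the cell type markers aside, were chosen after their values were seen. Promoter windows came from RefSeq on GRCh38.p14. Figures used matplotlib 3.10.9 (Python 3.11.15).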

Additional observations from a re-analysis of the deposited data

Results flagged for a closer look

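FOLR1 lay on opposite sides of the control for the targets: both BMI1 hairpins lay below their control, and both FAL-1 hairpins lay above theirs. The FAL-1 difference minus the BMI1 difference was 0.59 on the log2 scale, and it did not pass limma's test over all genes (adjusted p = 0.9999). Against the BMI1 control the FAL-1 hairpins read -0.11 and -0.10 for FOLR1. EPCAM had the opposite arrangement, with 0.43 and 0.52 for the BMI1 hairpins and -0.13 and -0.01 for the FAL-1 hairpins. Its difference was -0.55 (adjusted p = 0.9999, limma). Against the control of the other target EPCAM read 0.13 on average with BMI1 knockdown and 0.28 with FAL-1 knockdown, so the opposite arrangement of EPCAM rests on the pairing of each target with its own control array.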

How the results depend on the processing

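No gene passed limma's adjusted threshold for either target, for their difference or between the sets, under any alternative run, with the hairpin number as a replicate block (0 genes for each target) among them. Same-numbered deviations correlated at 0.27 across genes, and the numbers name different hairpins. With an unadjusted p under 0.05, 477 genes were counted for BMI1 and 563 for FAL-1. These counts were 782 and 1064 with the replicate block, 1043 and 1511 against the control of the other target, and 1195 and 1762 with the controls pooled. For BMI1 it was 292 among genes above the background level, and for FAL-1 it was 1927 without hairpin 1, on the FAL-1 hairpin 2 array alone. None of the 10 markers reached 1.5-fold with both hairpins, but 1 (FOLR1) did for BMI1 at a log2 difference of 0.32, and 0 to 1 did with 1 BMI1 hairpin left out (FOLR1 without hairpin 2). The FOLR1 difference with BMI1 knockdown ranged from -0.62 to -0.31 over 11 alternatives, and that with FAL-1 knockdown from -0.10 to 0.09. Other priors, the filter on dim genes, the replicate block and probe set means left both FOLR1 estimates as they were. Those settings could not change a sign. Other normalizations, other or pooled controls and left-out hairpins could, and the BMI1 difference stayed negative in each. The FAL-1 difference turned negative against the other control (-0.10) and the pooled controls (-0.01). The 6 wider lists held 16, 32, 18, 26, 12 and 16 measured genes. List genes at 1.5-fold with both hairpins numbered 2 for BMI1 (SPP1 and CRABP2, of the 32 antigens and secreted markers), beside 1.44% of all genes. They numbered 1 against the control of the other target, 1 against the mean of both controls, 0 at 2-fold, 9 at a log2 difference of 0.32, and 4 to 7 with hairpin 1 or 2 left out. For FAL-1 such list genes numbered 4 (SPP1 and SLC34A2 of those 32, CA12 of 18 and FBXW7 of 12), beside 1.21% of all genes. The count was 0 at 2-fold, 8 at a log2 difference of 0.32, and 6 to 11 with 1 hairpin left out, most without hairpin 1. For these list counts, shares over all genes are given at the main setting only. Markers at background on every array numbered 1, then 2 with the mean of probe sets, 0 at the 25th percentile of all probe sets or the 90th of olfactory receptor genes, and 5 at the 99th. That count depends on where the background level is set. Every gene but ARID1A lay near the array median or lower, where array signal is weakest.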

Other observations

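Some genes of the lists were high on the array with FAL-1 hairpin 2 alone, and were singled out after their values were seen. CD24, a surface glycoprotein, read 7.73 there beside 5.21 in the FAL-1 control and 5.77 with FAL-1 hairpin 1. LHX1, a homeobox factor of the Müllerian duct and kidney, read 8.37 beside 7.61 and 7.46. The beta globin gene HBB read 7.71 beside 6.50 and 6.69. These are values of 1 array without a test.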
